A study of Mus musculus with 26 samples.

Results

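Eda2r, a receptor gene of the tumour necrosis factor (TNF) receptor family, and 9 classical target genes of the transcription factor p53 were followed across diet and genotype in mouse leg muscle. The members were chosen by gene symbol, with earlier results of these data known, as Eda2r, Cdkn1a, Mdm2, Zmat3, Trp53inp1, Ccng1, Phlda3, Sesn1, Aen and Bbc3, and every probe set whose platform symbol was exactly one of these was taken. All 10 genes passed the filter on dim probe sets, among 14847 genes tested, and 22 of the 34945 probe sets that name exactly 1 gene belonged to them. Eda2r was selected on its higher intensity in knockout mice on the control diet, and the p53 targets were set beside it, so the values of that comparison are given as a description, with no test.

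The tissue was the tibialis anterior together with the extensor digitorum longus (TA/EDL), fast muscles of the lower leg, measured on 26 one-colour Affymetrix arrays. Each array is called a mouse here, since the labels name no pooling. FLOX mice carried floxed alleles of the gene for PGC-1a, a coactivator of mitochondrial genes, and MKO mice were their littermates with a PGC-1a knockout specific to skeletal muscle. All mice were of mixed C57/BL6 and 129 background, were housed singly and ate AIN-93M diets. Control mice (6 FLOX, 7 MKO) received 90% of their free intake, and calorie-restricted (CR) mice (6 FLOX, 7 MKO) received 80% for a week and then 60% of it as a CR diet for about 11 weeks. The labels name neither the Cre driver nor the age and sex of the mice.

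The p53 protein is a transcription factor activated by DNA damage and other stress. It switches on genes that halt the cell cycle, repair DNA, limit oxidative stress or start cell death, and Mdm2, one of its targets, closes a feedback loop by marking p53 for degradation. Eda2r (also called XEDAR) binds the A2 form of ectodysplasin, is itself a p53 target, signals to NF-kB and is known in muscle for its link to wasting.

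The promoters of the receptor, of the feedback gene and of the best-known target are shown because they differ in p53 motifs. Windows run from 250 bases before to 50 bases after a RefSeq start (GRCm38.p6), and capitals mark p53 decamers, the 10-base unit of p53 binding sites, which reads alike on both strands. The Eda2r gene spans chrX:97333837-97377234, Mdm2 chr10:117688875-117710758 and Cdkn1a chr17:29090979-29100722, and each window covers the start of its gene. The Eda2r window is chrX:97377160-97377459 (minus strand), the Mdm2 window chr10:117710709-117711008 (minus strand) and the Cdkn1a window chr17:29090729-29091028 (plus strand).
Eda2r: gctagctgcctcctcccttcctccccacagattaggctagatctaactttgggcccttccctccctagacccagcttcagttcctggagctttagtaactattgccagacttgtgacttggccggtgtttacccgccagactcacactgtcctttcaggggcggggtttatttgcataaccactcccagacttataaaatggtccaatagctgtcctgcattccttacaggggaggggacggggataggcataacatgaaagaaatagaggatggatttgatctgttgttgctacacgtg
Mdm2: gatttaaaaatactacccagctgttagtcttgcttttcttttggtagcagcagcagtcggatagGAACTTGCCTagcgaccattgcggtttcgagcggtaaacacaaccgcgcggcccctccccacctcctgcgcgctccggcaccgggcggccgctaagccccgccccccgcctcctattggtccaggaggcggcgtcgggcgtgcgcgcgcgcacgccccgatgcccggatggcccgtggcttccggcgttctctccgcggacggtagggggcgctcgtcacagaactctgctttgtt
Cdkn1a: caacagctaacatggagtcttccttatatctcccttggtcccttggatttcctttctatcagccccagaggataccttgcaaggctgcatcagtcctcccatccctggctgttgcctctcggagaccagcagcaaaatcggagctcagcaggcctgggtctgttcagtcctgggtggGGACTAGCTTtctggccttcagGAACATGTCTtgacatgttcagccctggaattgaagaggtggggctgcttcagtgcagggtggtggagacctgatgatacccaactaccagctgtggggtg
The Cdkn1a window shown held 2 decamers, GGACTAGCTT starting 73 bases before the start and GAACATGTCT starting 51 bases before it, while the other Cdkn1a window (chr17:29093519-29093818, plus strand) held 0. The Mdm2 window held GAACTTGCCT, 186 bases before the start, and the Eda2r window held none. Of the 10 members, 8 had at least 1 window, 13 windows in all, and 6 of the 13 held a decamer. These 6 belong to 5 genes, and the pair of Aen windows among them overlap and hold the same decamer. Of all 32851 windows, 8.36% held a decamer and 0.0731% held 2 with at most 13 bases between them. A match is a description of the letters and not a measured site.

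Values are the authors' intensities on a linear scale, and differences are in log2(intensity + 16), which understates changes of dim genes. A gene passed, or was called, at an adjusted p under 0.05 over all genes in limma, a linear model fit. Array minima were 56.6 to 62.8 and array medians 212 to 232. All 5 probe sets of Ppargc1a, the targeted gene, were brighter in MKO mice, by ratios of means of 1.55 to 1.84 on the control diet and 1.33 to 1.58 on CR. The labels do not place them relative to the deleted part, so the mice are called labelled MKO and every genotype direction rests on the labels. The fast fibre markers were bright on every array (summed intensity of 6 genes 174438 to 187754). Lower RNA per cell and fewer cells of a type cannot be told apart in whole muscle. The p-values measure the spread between these mice, and the litter of each is not recorded in the labels.

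Eda2r was highest in mice labelled MKO on the control diet and lowest in FLOX mice on CR. On the control diet its intensity ran from 345 through a median of 397 to 521 in FLOX mice and from 494 through 778 to 924 in mice labelled MKO. On CR it ran from 246 through 299 to 421 in FLOX mice and from 458 through 606 to 655 in mice labelled MKO. Every CR mouse labelled MKO was therefore above every CR FLOX mouse, while 1 of the 7 control-diet mice labelled MKO lay within the FLOX range. The means, in rising order, were 311 ± 60.5 (SD, n = 6) in CR FLOX, 419 ± 71.6 (SD, n = 6) in control FLOX, 579 ± 73.7 (SD, n = 7) in CR labelled MKO and 750 ± 149 (SD, n = 7) in control labelled MKO.

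**Figure D1:**
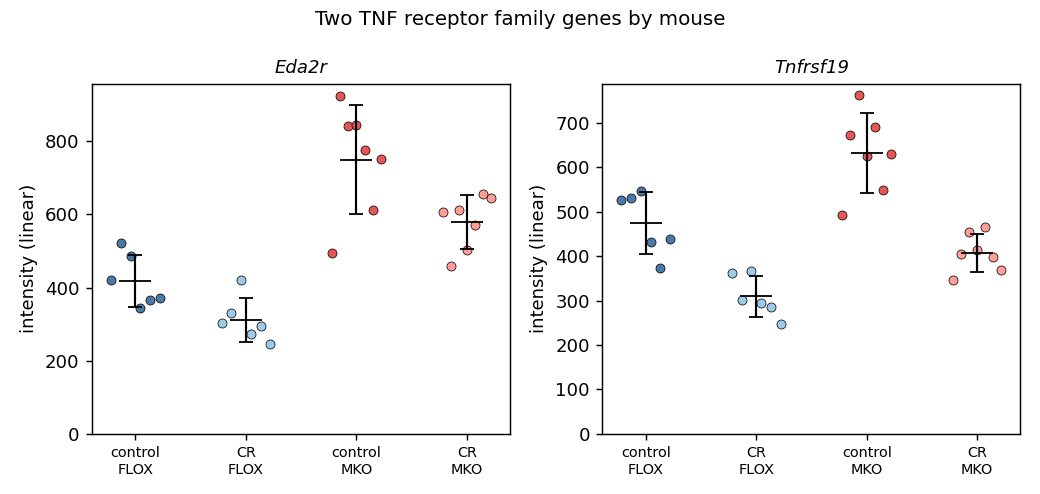
Intensity (linear axis from 0) of Eda2r and of the related receptor gene Tnfrsf19, 1 point per mouse, with the mean and SD of each group. On CR the 7 Eda2r values of mice labelled MKO, 458 to 655, lie above the 6 FLOX values, 246 to 421.

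On CR, in mice outside the control-diet comparison that Eda2r was selected on, the gene was 1.83-fold higher in mice labelled MKO (log2 difference 0.87, 95% interval 0.61 to 1.13, limma adjusted p = 1.61e-05). The limma fit shares its estimate of spread with the control-diet mice, and the members were chosen with earlier results of these data known. Eda2r is thus not wholly independent of its choice here. Eda2r stood at place 7 of the 14847 genes by log2 difference. An exact two-sided permutation test over the 13 mice gave p = 0.000583, the smallest that the 1716 splits can give. On the control diet the difference that led to the choice was 0.81 (1.75-fold, 95% interval 0.54 to 1.07), at place 6.

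Every diet comparison of Eda2r takes control-diet mice as its baseline, and both control-diet groups entered the choice of the gene, so these diet tests are not independent of that choice. In FLOX mice Eda2r fell under CR by a margin close to the threshold. The fall was 1.33-fold (log2 difference -0.41 ± 0.13 SE, 95% interval -0.69 to -0.14, limma adjusted p = 0.0473), and 5 of the 6 restricted mice were under the whole control range. The exact two-sided permutation test over the 12 FLOX mice gave p = 0.0173. The call held in 8 of 14 other settings and in 10 of 26 fits that each left out 1 mouse, with adjusted p between 0.0151 and 0.126 over those fits, so it depends on the setting and on single mice. In mice labelled MKO the log2 difference was -0.35 (95% interval -0.60 to -0.09) and missed the threshold (limma adjusted p = 0.0569). Without control mouse 1 labelled MKO, the lowest of the values on which the gene was selected as high, it was -0.44 with a limma adjusted p of 0.00941, and nothing is read from that call.

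The diet effects on Eda2r in the genotypes differed by 0.06 (95% interval -0.31 to 0.44), and this interaction did not pass (limma adjusted p = 0.999). The mean of both diet effects was then taken, a comparison added after these values had been seen. It was -0.38 (95% interval -0.57 to -0.19, limma adjusted p = 0.00275) and passed in every one of the 13 other settings that could be fitted and the 26 fits without 1 mouse. It draws on the same mice, so it is independent neither of the results within each genotype nor of the choice of Eda2r, and its passing is no separate support for them.

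Mdm2, the ubiquitin ligase that restrains p53, had the same order of group means as Eda2r, with control FLOX (1330 ± 67.8, SD, n = 6) and CR labelled MKO (1338 ± 41.1, SD, n = 7) within one SD of each other. Its intensity ran from 1247 through 1319 to 1417 in control FLOX, from 1103 through 1213 to 1244 in CR FLOX, from 1369 through 1470 to 1661 in control labelled MKO and from 1298 through 1330 to 1415 in CR labelled MKO. Every CR FLOX mouse was lower than every control FLOX mouse and every CR mouse labelled MKO. CR lowered it by 0.16 on the log2 scale in FLOX mice (limma adjusted p = 0.0192) and by 0.16 in mice labelled MKO (limma adjusted p = 0.00846). On CR it was 0.17 higher in mice labelled MKO (limma adjusted p = 0.00528). The FLOX diet call was lost without control FLOX mouse 2 or 3 or CR FLOX mouse 1 or 4, with adjusted p up to 0.0541. On the control diet the difference was 0.17, with 6 of 7 mice labelled MKO above all FLOX mice. A further Mdm2 probe set showed the same directions (-0.20, -0.18 and 0.18), each passing in limma, while a dim one, at 105 to 135, did not pass in any of these comparisons. The dim one had the same sign for CR in FLOX mice (-0.061). Its sign was opposite for CR in mice labelled MKO (0.011), for genotype on CR (-0.034) and for genotype on the control diet (-0.11).

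Phlda3, an inhibitor of Akt signalling, showed the clearest diet effect of the 10 genes. Its intensity ran from 5360 through 6024 to 6912 in control FLOX and from 4285 through 4569 to 4855 in CR FLOX. In mice labelled MKO it ran from 5181 through 6102 to 6380 on the control diet and from 3889 through 4335 to 5059 on CR. In both genotypes the CR and control ranges did not overlap. The fall was 0.40 on the log2 scale in FLOX mice (limma adjusted p = 0.000245) and 0.41 in mice labelled MKO (limma adjusted p = 4.78e-05), about 1.32-fold in each. Genotype made a difference of -0.04 on CR (95% interval -0.17 to 0.09), which did not pass.

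Zmat3, a zinc finger RNA-binding protein, and Trp53inp1, a stress protein that acts on p53, were higher by genotype on CR. Zmat3 ran from 355 through 437 to 497 in CR FLOX and from 470 through 508 to 519 in CR labelled MKO, with 5 of the 7 latter mice above all FLOX mice. The difference was 0.22 (95% interval 0.10 to 0.34, limma adjusted p = 0.00993). Trp53inp1 ran from 672 through 810 to 980 and from 958 through 1029 to 1147 in the same groups, a difference of 0.38 (95% interval 0.17 to 0.59, limma adjusted p = 0.0112). A dimmer Trp53inp1 probe set gave 0.11 and did not pass. On the control diet, as description, Zmat3 ran from 375 through 393 to 427 in FLOX mice and from 429 through 478 to 539 in mice labelled MKO, a difference of 0.27 with no overlap. Trp53inp1 ran there from 572 through 745 to 1038 and from 730 through 989 to 1026, a difference of 0.26 with overlapping groups. The dimmer Trp53inp1 probe set had the opposite sign for genotype on the control diet (-0.049) and for CR in FLOX mice (-0.054), so the probe sets of this gene disagreed in direction as well as in size. Neither gene passed for diet, with differences of 0.12 and 0.07 in FLOX mice and 0.06 and 0.19 in mice labelled MKO.

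Cdkn1a, the cell cycle inhibitor p21, spread widely on CR and passed in no tested comparison. It ran from 310 through 389 to 464 in control FLOX, from 307 through 434 to 499 in CR FLOX, from 463 through 494 to 555 in control labelled MKO and from 327 through 423 to 687 in CR labelled MKO. The genotype difference on CR was 0.19 (95% interval -0.10 to 0.47), and the interval leaves room for a difference of either sign. On the control diet 6 of 7 mice labelled MKO lay above all FLOX mice, a difference of 0.37 given as description. CR gave differences of 0.08 in FLOX mice and -0.11 in mice labelled MKO (limma adjusted p = 0.822 and 0.659). The other Cdkn1a probe set gave 0.14, -0.08 and, for genotype on CR, 0.05, and passed in none of these in limma. On the control diet, as description, that probe set was 0.26 higher in mice labelled MKO. The groups did not overlap there, with FLOX mice up to 251.2 and mice labelled MKO from 251.8.

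**Figure D2:**
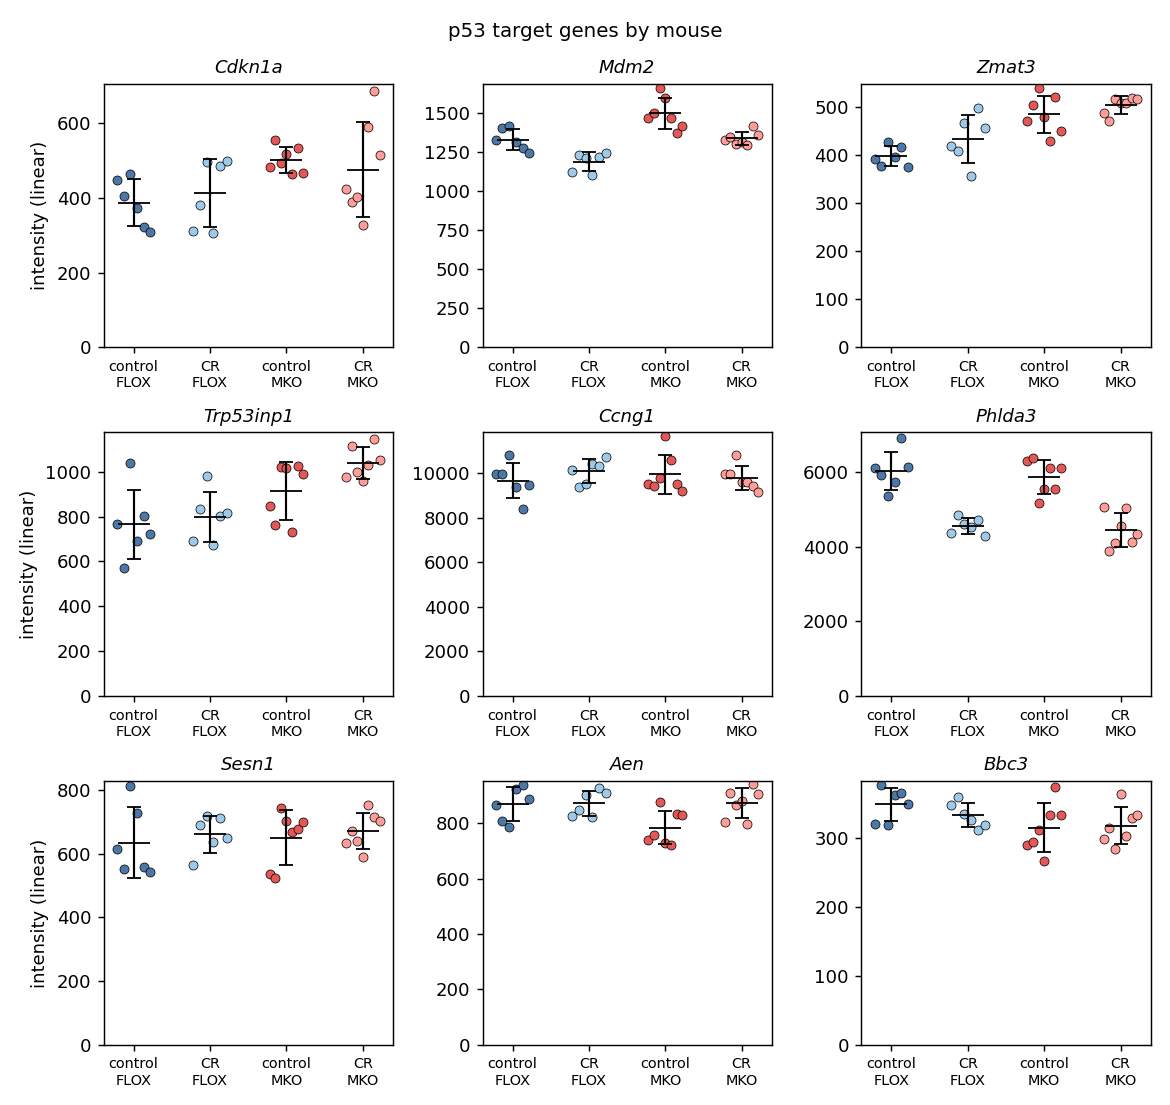
Intensity (linear axes from 0) of the 9 p53 target genes, 1 point per mouse, with the mean and SD of each group. Phlda3 separates by diet in both genotypes, with CR FLOX at 4285 to 4855 and control FLOX at 5360 to 6912, whereas the Ccng1 groups overlap.

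The remaining members passed in few comparisons. Ccng1, cyclin G1, ran from 8412 through 9704 to 10826 in control FLOX, from 9376 through 10250 to 10704 in CR FLOX, from 9197 through 9506 to 11664 in control labelled MKO and from 9150 through 9606 to 10815 in CR labelled MKO. Sesn1, a sestrin that restrains mTORC1, had group means of 634 to 672, and Bbc3, the cell death gene Puma, of 316 to 350. The groups of these 3 genes overlapped on both axes, and none of their tests passed in limma. The differences were 0.06, 0.07 and -0.06 for CR in FLOX mice and -0.04, 0.02 and -0.07 for genotype on CR. The dimmer Ccng1 probe sets gave -0.05 and 0.04 for CR in FLOX mice and -0.10 and -0.04 in mice labelled MKO. Those of Sesn1 gave 0.21, -0.02 and 0.09 for CR in FLOX mice and 0.32, -0.04 and 0.09 in mice labelled MKO. None of these dimmer probe sets passed in a tested comparison. Aen, a p53-induced nuclease, rose by 0.15 under CR in mice labelled MKO (limma adjusted p = 0.0395), a call that held in 10 of 14 other settings and in 17 of 26 fits without 1 mouse (adjusted p up to 0.0929), from 784 ± 60.5 (SD, n = 7) to 872 ± 54.1 (SD, n = 7). The other 3 Aen probe sets gave 0.03, 0.04 and 0.02 and did not pass. For genotype on CR 1 of them was 0.13 lower (limma adjusted p = 0.0130 over all probe sets that name 1 gene). The reported one was level there at -0.0004. The mean of the Aen probe sets gave 0.07 under CR in mice labelled MKO (limma adjusted p = 0.110). On the control diet, as description, Aen and Bbc3 were lower in mice labelled MKO, with differences of -0.14 and -0.14. For each of them 4 of 7 mice labelled MKO lay below all FLOX mice. The differences there were 0.04 for Ccng1, 0.04 for Sesn1 and -0.04 for Phlda3.

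In FLOX mice, CR was followed by a fall in 3 of the 10 genes (Eda2r, Mdm2 and Phlda3) and a rise in 0, where 10.0% of all genes tested were called, 4.66% higher and 5.37% lower. The groups did not overlap for Mdm2 and Phlda3, and for 5.4% of all genes. In mice labelled MKO, 2 genes fell (Mdm2 and Phlda3) and 1 rose (Aen, a call that depends on the setting and on single mice), with 15.1% of all genes called, 6.64% higher and 8.49% lower. The groups did not overlap for Phlda3, and for 3.48% of all genes. Both diet comparisons use control-diet mice that also entered the choice of Eda2r, FLOX mice in the former and mice labelled MKO in the latter. Between genotypes on CR, 4 of 10 were higher (Eda2r, Mdm2, Zmat3 and Trp53inp1) and 0 lower, with 17.3% of all genes called, 8.23% higher and 9.05% lower. The groups did not overlap for Eda2r and Mdm2, and for 7.71% of all genes. On the control diet, the comparison behind the choice, 3 members were past the threshold beside 19.3% of all genes (9.06% higher, 10.2% lower), the groups did not overlap for Zmat3 and for 6.63% of all genes, and nothing is read from these counts.

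The median log2 difference of the 10 genes was 0.035 for CR in FLOX mice, -0.0021 for CR in mice labelled MKO and 0.096 for genotype on CR. The medians over all genes were 0.0012, 0.00095 and -0.016. The interaction passed for 0 of 10 members and 0 of 14847 genes in limma (0.0% called), and 0 members and 720 genes had an unadjusted p under 0.05. These counts take the brightest probe set per gene. Dimmer probe sets of Cdkn1a and Trp53inp1 gave interactions of -0.22 and 0.16 (limma unadjusted p = 0.0320 and 0.0459), which did not pass. For the mean diet effect, 3 members (Eda2r, Mdm2 and Phlda3) were lower and 0 higher, beside 23.9% of all genes called, 12.6% lower and 11.3% higher. These comparisons share groups of mice, so their counts are not independent of each other.

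**Figure D3:**
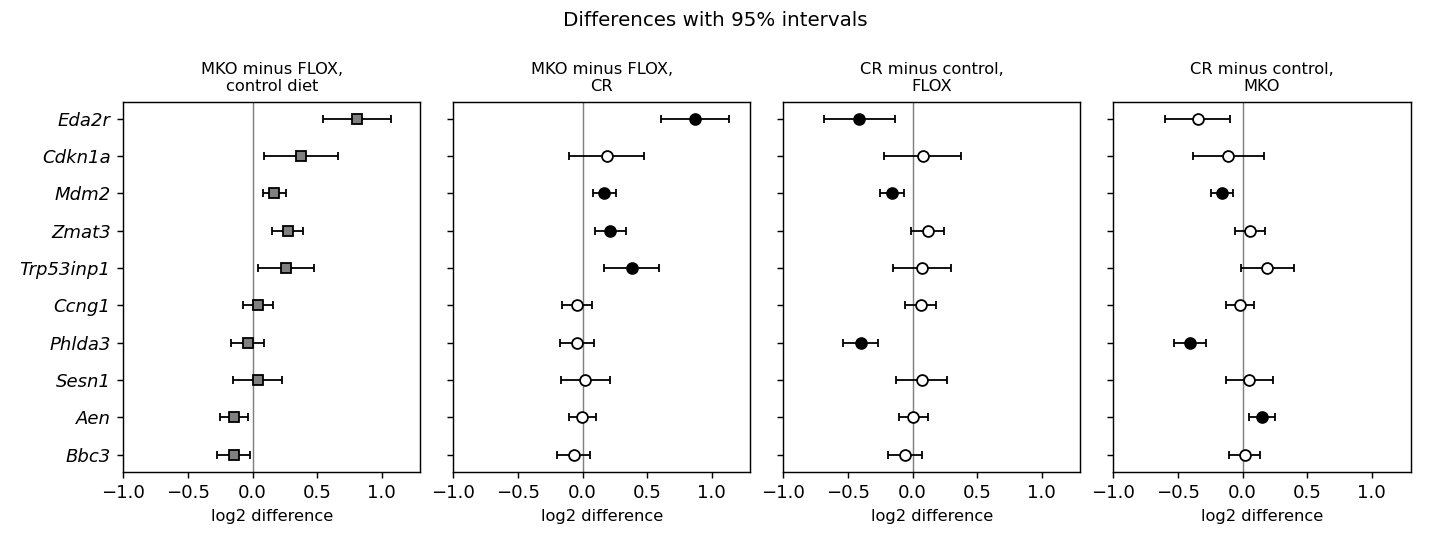
Log2 differences of the 10 genes with 95% intervals, 1 panel per comparison. Filled circles passed at an adjusted p under 0.05, open circles did not, and grey squares mark the control-diet genotype comparison that led to the choice of Eda2r and has no test. Eda2r stands farthest to the right on CR, at 0.87.

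Among ectodysplasin genes and their NF-kB relays, 17 of 20 listed genes were tested. CR in FLOX mice was followed by a fall of 3 and a rise of 0, and CR in mice labelled MKO by a fall of 4 and a rise of 0. Of all genes tested, 5.37% fell and 4.66% rose in the former, and 8.49% fell and 6.64% rose in the latter. Between genotypes on CR 2 were higher and 1 lower, beside 8.23% and 9.05% of all genes. The list medians for CR in FLOX mice, CR in mice labelled MKO and genotype on CR were -0.079, -0.080 and 0.039. Tnfrsf19 (TROY), a receptor related to Eda2r, ran from 372 through 482 to 548 in control FLOX, from 248 through 298 to 368 in CR FLOX, from 493.5 through 630 to 763 in control labelled MKO and from 347 through 404 to 467 in CR labelled MKO. The diet groups did not overlap in either genotype. It fell by 0.59 in FLOX mice (limma adjusted p = 0.000526) and by 0.61 in mice labelled MKO (limma adjusted p = 9.05e-05), and on CR it was 0.38 higher in mice labelled MKO (limma adjusted p = 0.00751).

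Relb, an NF-kB subunit, fell by 0.27 in FLOX mice and by 0.19 in mice labelled MKO (limma adjusted p = 0.00204 and 0.0108), and was 0.24 higher by genotype on CR (limma adjusted p = 0.00161). Tab2, an adaptor of the TAK1 kinase, fell by 0.31 and by 0.28 (limma adjusted p = 0.0161 and 0.0113). The others called were Ikbkb, a kinase that frees NF-kB, which fell by 0.20 in mice labelled MKO (limma adjusted p = 0.0129), and Map3k14, the NF-kB inducing kinase, 0.15 lower for genotype on CR (limma adjusted p = 0.0442). The ligand gene Eda had group means of 230 to 237 and the receptor gene Edar of 166 to 173. Neither passed in a tested comparison.

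Of 16 listed regulators of p53, 13 were tested, and Trp53 itself was not analysed here. Under CR 1 rose and 3 fell in FLOX mice, and 1 rose and 4 fell in mice labelled MKO. For genotype on CR 0 of 13 passed in limma and 3 had an unadjusted p under 0.05. The shares of all genes called in these comparisons were 10.0%, 15.1% and 17.3%. The list medians were -0.064, -0.059 and 0.057. Cop1, a ubiquitin ligase for p53, fell by 0.30 and by 0.31 in the 2 genotypes (limma adjusted p = 6.31e-05 and 8.39e-06). Chek2, a checkpoint kinase, fell by 0.18 and by 0.13 (limma adjusted p = 0.00153 and 0.00705). Hipk2, a kinase of p53, fell by 0.24 and by 0.23 (limma adjusted p = 0.00902 and 0.00472). The genes that rose were Atr, a checkpoint kinase, in FLOX mice (0.19, limma adjusted p = 0.0218) and Ppm1d, a phosphatase of p53, in mice labelled MKO (0.20, limma adjusted p = 0.0191). Trp53bp1, a DNA repair protein, fell by 0.30 in mice labelled MKO (limma adjusted p = 0.000385) and had a difference of -0.11 in FLOX mice, which did not pass.

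Other p53 targets of arrest and repair moved in both directions under CR. Of 12 such genes, 3 rose and 1 fell under CR in FLOX mice, and 4 rose and 3 fell in mice labelled MKO. Among all genes, 10.0% were called in the former comparison, 15.1% in the latter and 17.3% for genotype on CR. Gadd45a, a stress sensor, rose by 0.38 and 0.27 (limma adjusted p = 0.00519 and 0.0269), and Ddb2, which recognises damaged DNA, rose by 0.20 and 0.14 (limma adjusted p = 0.000837 and 0.0065). Ercc5, a repair nuclease, rose by 0.14 and 0.12, and Xpc, a damage sensor, by 0.12 in mice labelled MKO (limma adjusted p = 0.0174, 0.0206 and 0.0210). Rrm2b, a ribonucleotide reductase subunit, fell by 0.16 and by 0.14, and Polk, a DNA polymerase, and Plk3, a stress kinase, fell by 0.15 and by 0.10 in mice labelled MKO (limma adjusted p = 0.0386, 0.0436, 0.0423 and 0.0338). Plk3 was the only one of the 12 called for genotype on CR, 0.10 lower (limma adjusted p = 0.0438), and the list medians were 0.0071, 0.054 and -0.021. Of 7 tested genes of cell death, 1 rose and 0 fell in each genotype, Pidd1 in FLOX mice (0.35) and Dram1 in mice labelled MKO (0.24). For genotype on CR 0 of these 7 passed in limma, with 0 at an unadjusted p under 0.05. Their medians were 0.010, 0.034 and -0.029. Of 7 tested genes of metabolism and stress, 0 passed for diet in limma, with 1 and 2 at an unadjusted p under 0.05 in FLOX mice and in mice labelled MKO, and the medians were 0.10, 0.027 and -0.071. Aldh4a1, a proline-breakdown enzyme, was 0.33 lower by genotype on CR (limma adjusted p = 0.00718).

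Genes of muscle wasting and denervation are given because Eda2r is known from wasting muscle. Of all genes, 10.0% were called for CR in FLOX mice, 15.1% for CR in mice labelled MKO and 17.3% for genotype on CR. The ubiquitin ligase genes Fbxo32 and Trim63 fell under CR in mice labelled MKO by 1.19 and by 0.51 (limma adjusted p = 0.00157 and 0.00638). In FLOX mice their differences were -0.80 and -0.31 and 0 of the 5 tested wasting genes passed in limma, with 3 at an unadjusted p under 0.05. The interactions of Fbxo32 and Trim63 were -0.39 (95% interval -1.15 to 0.36) and -0.20 (95% interval -0.57 to 0.18) and did not pass. For genotype on CR 0 of the 5 tested wasting genes passed in limma, with 0 at an unadjusted p under 0.05. The list medians were -0.23, -0.090 and 0.11. Of 15 denervation and developmental genes, 4 rose under CR in FLOX mice (Chrna1, Chrnb1, Myog and Myh8, by 0.29 to 0.46), and 1 rose (Chrna1, 0.34) and 1 fell (Hdac4, -0.26) in mice labelled MKO. For genotype on CR 2 were higher and 2 lower. Chrnb1, an acetylcholine receptor subunit, was 0.40 higher (limma adjusted p = 7.19e-05), and Musk, Chrne and Dach2 differed by 0.27, -0.25 and -0.31. The medians of this list were 0.093, 0.049 and 0.0016. Of 8 tested cell division genes 2 were higher for genotype on CR, Mcm3 at 0.35 and Mcm2 at 0.18 (limma adjusted p = 0.000113 and 0.00639), both replication helicase subunits. Mcm3 rose under CR in both genotypes (0.29 and 0.38), Mcm2 and Mcm4 in mice labelled MKO (0.21 and 0.12), and the list medians were 0.029, 0.031 and 0.021.

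Markers of other cells moved with diet beside the falls of Eda2r, Mdm2 and Phlda3. Calls among all genes were 10.0% for CR in FLOX mice, 15.1% for CR in mice labelled MKO and 17.3% for genotype on CR. Fibroblast markers fell in 4 of 6 cases in FLOX mice, with a summed intensity of 13011 to 16555 on the control diet and 8481 to 12677 on CR. In mice labelled MKO 4 of 6 fell as well, from 13579 to 17663 down to 7726 to 13074. Endothelial markers fell in 2 of 6 and 4 of 6 cases, and leukocyte markers in 2 of 6 and 1 of 6. By genotype on CR, 3 of 6 endothelial markers were lower, 0 of 6 fibroblast markers passed in limma (3 had an unadjusted p under 0.05), and 1 of 6 slow fibre markers (Myl2) was higher, with summed slow fibre intensities of 4011 to 7558 in FLOX mice and 7554 to 20709 in mice labelled MKO. The part of these cells and fibres in the results above was not tested.

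By Pearson correlation over the 26 arrays, the genes most like Eda2r were Pdlim3 (0.91), Vezf1 (0.91), Vps37c (0.90), Ap3s1 (0.89) and Nedd4 (0.87). These values include the group differences. After group means were removed they were Vsig10 (0.78), Pa2g4 (0.73), Tnfrsf19 (0.67), Tbc1d4 (0.66) and Fsip1 (0.66). For Cdkn1a they were Uso1 (0.81), Copb2 (0.81), Ikzf2 (0.75), Snrnp200 (0.74) and Bex1 (0.73), and after removal of the group means Copb2 (0.81), Uso1 (0.80), Acss1 (0.75), Abcb1b (0.75) and Ftsj3 (0.74). Before that removal, 1 gene with a symbol in the form of an unnamed gene stood above Ikzf2 and was skipped. Among the 45 pairs of members the correlation of such deviations ran from -0.58 to 0.65 with a median of 0.10, and 26 pairs were above 0. All of these are descriptions over arrays that share their normalization.

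**Figure D4:**
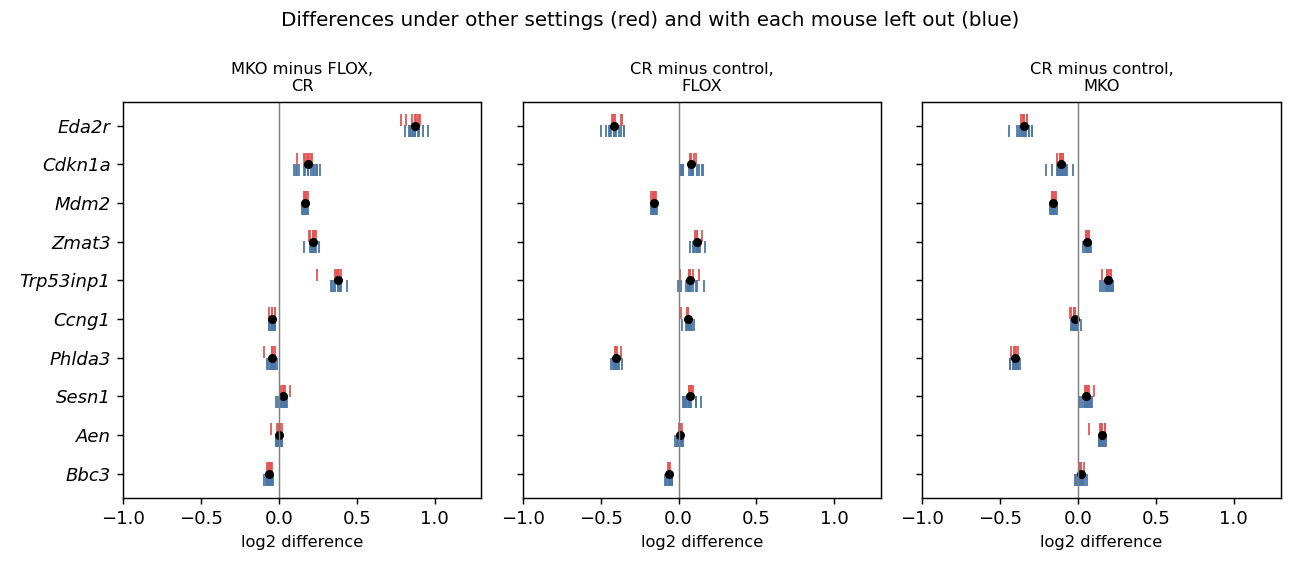
Log2 differences in the 3 tested comparisons as reported (black points), under other settings (red ticks) and with each mouse left out in turn (blue ticks). Eda2r on CR stays between 0.78 and 0.96 between genotypes, while its diet difference in FLOX mice runs from -0.50 to -0.35.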

How the data were processed

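Total RNA of 26 muscles was measured on 1-colour arrays. Per the labels' protocols, RNA was extracted with Trizol, cleaned on RNeasy columns and labelled as biotin cRNA. The deposited values are a linear intensity per probe set, processed by the authors in a way not given in the sources used here. No value was at or below 0. The number of arrays limits the precision.

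The deposited intensity plus 16 was then put on the log2 scale. Of 45101 probe sets, 34945 named exactly 1 gene. Those under the 30th percentile of the mean over all probe sets (log2 7.47) were left out and the brightest probe set per gene was kept. A first run took the percentile over the named probe sets, which gave 14088 genes, and is kept as an alternative. limma 3.58.1 in R 4.3.3 (lmFit, eBayes) fitted 1 mean per group over all arrays, with Benjamini-Hochberg adjustment over 14847 genes and a threshold of 0.05. Calls for the other probe sets of a member came from a separate limma fit without the filter, adjusted over all 34945 probe sets. In that fit Eda2r under CR in FLOX mice did not pass (limma adjusted p = 0.0592). Exact permutation tests went through every split of the mice, with numpy 2.4.6. The fit was tested on simulated data.

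In all 6 comparisons were computed: diet in each genotype, genotype on each diet, the interaction, and the mean diet effect, which was added after results had been seen. The members and gene lists were chosen with earlier results of these data known. Named genes are the members, the 5 genes most like Eda2r and Cdkn1a, and up to 3 genes of smallest p per list. Among the genes most alike, symbols in the form of an unnamed gene were skipped. Others were named to spell out small counts, after their values were seen. Same-numbered mice deviated together only weakly (37 pairs, correlation -0.36 to 0.34, 16 over 0.1). Their median correlation was 0.083, beside -0.012 for mice of other numbers in other groups. Numbers were therefore not used as pairs in the reported fit. Alternatives changed the pseudocount, filter, normalization, probe set choice, variance model, array weights, arrays fitted, threshold and replicate block, and left out each mouse.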

Additional observations from a re-analysis of the deposited data

How the results depend on the processing

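The precision is limited by 6 or 7 arrays per group, and dim probe sets near the array floor understate changes. Under an adjusted p under 0.01, 1 member in place of 3 was called for CR in FLOX mice, and genes called went from 1490 to 669, from 2246 to 1111, from 2863 to 1638, from 2566 to 1531 and, for the mean diet effect, from 3543 to 2224. With the mean of probe sets, 5 members in place of 3 were past the threshold for genotype on the control diet. Leaving out each mouse gave 1 to 3 members for CR in FLOX mice, 2 to 4 for CR in mice labelled MKO, 3 to 6 for genotype on the control diet, 4 to 4 for genotype on CR, 0 to 0 for the interaction and 3 to 4 for the mean diet effect. The exact permutation tests of Eda2r without 1 mouse gave 0.81 to 0.96 for genotype on CR (p = 0.00126 to 0.00216) and -0.50 to -0.35 for CR in FLOX mice (p = 0.00433 to 0.0368). For genotype on CR the remaining groups never overlapped, so those p-values reflect only the group sizes left.

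The fall of Eda2r under CR in FLOX mice missed the threshold with pseudocount 64 (limma adjusted p = 0.0557), no filter (0.0551), median centring (0.0548), a trended robust variance (0.0528) and array weights (0.0544). With the percentile taken over probe sets that name 1 gene, an alternative added after seeing the data, it passed at 0.0459. Of the fits without 1 mouse 16 missed it, the highest being 0.126 without control FLOX mouse 2. The rise of Aen under CR in mice labelled MKO was lost with median centring (0.0642), with only the groups compared (0.0705) and in 9 fits without 1 mouse (up to 0.0929). Zmat3 passed for the mean diet effect with array weights (0.0393) and without CR FLOX mouse 4 (0.0226), and for CR in FLOX mice without that same mouse (0.0480). Eda2r under CR in mice labelled MKO also passed without control mouse 6 labelled MKO (0.0392) and without CR FLOX mouse 3 (0.0425).

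Directions turned only for differences that had not passed. Aen by genotype on CR became 0.018 with median centring and 0.0092 with array weights, and with the mean of probe sets the Sesn1 interaction became 0.016 and the mean diet effects of Cdkn1a and Ccng1 became 0.0074 and -0.019. Without 1 mouse, signs turned within -0.020 to 0.029 (Aen, CR in FLOX), -0.019 to 0.020 (Aen, genotype on CR), -0.020 to 0.057 (Bbc3, CR in MKO), -0.044 to 0.019 (Ccng1, CR in MKO), -0.0032 to 0.17 (Trp53inp1, CR in FLOX) and -0.022 to 0.053 (Sesn1, genotype on CR). For the interaction they turned within -0.029 to 0.15 (Eda2r), -0.019 to 0.027 (Mdm2), -0.045 to 0.028 (Phlda3) and -0.091 to 0.024 (Sesn1), and for the mean diet effect of Cdkn1a within -0.063 to 0.023. The cause of these changes was not tested.

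With the replicate number as a replicate block, 3, 4, 4, 4 and 0 members passed for CR in FLOX, CR in MKO, genotype on the control diet, genotype on CR and the interaction, and 3 for the mean diet effect. Eda2r under CR in mice labelled MKO then passed (limma adjusted p = 0.0462). Only 2 of 26 arrays were most like an array of their own number. The interaction and the mean diet effect need all 4 groups, so a fit of only the groups compared was not run for them.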

Other observations

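The brighter probe set of Eif2s3y, a Y-linked gene, read 1192 to 2012 over the 26 muscles, a dim one read 124 to 143, and the 3 Xist probe sets read 95.7 to 181. Eda2r itself is X-linked. Eif2s3y was 0.23 higher under CR in mice labelled MKO (limma adjusted p = 0.0368), and differed by 0.16 under CR in FLOX mice and by 0.15 for genotype on CR, which did not pass. Its part in the results on Eda2r was not tested.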
